A study of Mus musculus with 9 samples.

Results

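The 10 genes described here encode the main enzymes of the hepatic methionine cycle, of the transsulfuration branch that leads from homocysteine to cysteine, and of the folate reactions that feed the cycle. They are Mat1a, Mat2a, Gnmt, Ahcy, Bhmt, Cbs, Cth, Cdo1, Mthfd1 and Shmt1. They were chosen by gene symbol, and all 10 were found among the 21870 genes of the deposited mRNA table. All 10 passed the filter on low values and were among the 11557 genes tested. The series profiled liver RNA from wild-type C57 BL6 mice aged 8 weeks, with 3 libraries in each of 3 groups. The dmPGE2+APAP group received dmPGE2, a long-lived prostaglandin E2 analogue, at 300 μg/kg intraperitoneally, and 1 h later an overdose of acetaminophen (APAP) at 500 mg/kg by the same route. The APAP group received the same APAP dose alone, and saline was given to the control group. Liver was taken 6 h after the injection. Comparisons of these groups ask how the overdose changed the pathway's mRNAs and whether levels differed with pretreatment. No group received dmPGE2 alone, so an effect of dmPGE2 itself and a changed response to APAP cannot be told apart. All 3 comparisons draw on the same 9 libraries, so those with a common group are not independent of each other.

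Methionine adenosyltransferases, encoded by Mat1a and Mat2a, join methionine to ATP and make S-adenosylmethionine, the methyl donor of most cellular methylation reactions. After methyl transfer, S-adenosylhomocysteine is hydrolysed to homocysteine, which is either remethylated to methionine or committed through cystathionine to cysteine. The liver carries most of the body's methionine metabolism, and hepatic cysteine is the limiting substrate for glutathione, which conjugates the reactive metabolite of acetaminophen. Adult hepatocytes mainly use Mat1a, whereas Mat2a is the form of most other tissues and of proliferating or dedifferentiated liver cells.

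Values are FPKM, fragments per kilobase of transcript scaled to the number of mapped fragments, as the authors deposited them; the number of reads behind them is unknown. Control libraries are numbered as their columns are. The third control library stood apart. In it, 565 tested genes lay more than 2-fold from the mean of the other 2 libraries of its group, against 131 to 261 genes in each of the other 8 libraries. The 10 genes together made up 0.894% of its summed FPKM and 1.37% to 1.89% of the sum elsewhere. Results that rest on it are given with and without it. Hepatocyte markers (Alb, Apoa1, Ttr and 3 others) were all detected. Their summed level was 38800 to 42800 FPKM in dmPGE2+APAP livers, 37300 to 44000 in APAP livers and 30500 to 33600 in control livers. Alb made up most of each sum, with means of 28645 FPKM in APAP livers and 22971 FPKM in control livers. Mean Alb, Apoa1 and Tat were higher in APAP than in control livers, and mean Ttr, Serpina1c and Hnf4a were lower. In that comparison 0 of the 6 hepatocyte markers were called. Neutrophil markers summed to 5.03 to 10.9 FPKM in dmPGE2+APAP livers, 9.24 to 40.0 in APAP livers and 2.38 to 6.75 in control livers. Erythroid and platelet markers summed to 147 to 162, 227 to 447 and 154 to 200 FPKM in dmPGE2+APAP, APAP and control livers. Pericentral hepatocyte markers summed to 3760 to 4040 FPKM in dmPGE2+APAP livers, 2850 to 3630 in APAP livers and 3790 to 5060 in control livers. In APAP against control livers 3 of 4 tested neutrophil markers and 4 of 6 erythroid and platelet markers were called upward, where 10.6% of all tested genes were, and 2 of 6 pericentral and 1 of 6 periportal markers were called downward, where 10.3% were. Of the other lists, 1 stellate, 1 sinusoidal endothelial and 1 cholangiocyte marker were called upward and 1 sinusoidal endothelial marker downward. The part of these cell types in the results was not tested. In bulk tissue, fewer cells of a type and less RNA per cell cannot be told apart.

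In the fits across all tested genes (limma on log2 of rescaled FPKM + 0.1, Benjamini-Hochberg adjusted p under 0.05), 3 of the 10 genes differed between APAP and control livers, Mat2a upward and Mthfd1 and Shmt1 downward. Over all tested genes 20.9% were called in that comparison (10.6% upward and 10.3% downward), so 3 of 10 is near the background and is not a result about this pathway as a whole. In dmPGE2+APAP against control livers 2 of the 10 were called, Bhmt upward and Shmt1 downward, where the background was 16.3% (8.51% upward and 7.81% downward). In dmPGE2+APAP against APAP livers limma called 0 of the 10, and the background was 0%; at an unadjusted p under 0.05 it held 0 of the 10 and 1069 of all 11557 genes. The FPKM ranges of the groups did not overlap for 3 of the 10 genes in APAP against control livers, 1 in dmPGE2+APAP against APAP and 5 in dmPGE2+APAP against control, where 43.6%, 16% and 42.4% of all tested genes did not overlap. The median log2 fold change of the 10 was 0.11, 0.15 and 0.29 for APAP against control, dmPGE2+APAP against APAP and dmPGE2+APAP against control, beside -0.04, 0.02 and -0.01 over all tested genes. Rescaling by trimmed means (TMM) moved APAP upward by 0.10 and dmPGE2+APAP by 0.13 (log2) relative to control in the mRNA table. Each fold change of a gene below is relative to that shift. Transcripts of the lncRNA table were divided by other factors, taken from both tables together, so that shift does not apply to them. Those factors were 0.9624, 0.9964 and 0.9519 in dmPGE2+APAP libraries, 1.02, 0.9515 and 1.125 in APAP libraries and 0.9921, 0.9977 and 1.014 in control libraries. Among all genes, 1222 rose and 1191 fell in APAP livers against control; without rescaling, 974 of 3081 called genes rose. Against control, 984 rose and 903 fell in dmPGE2+APAP livers, and without rescaling 714 of 2506 called genes rose. The labels do not say whether each library came from a mouse of its own, so the livers counted in the text are liver libraries and p-values measure the spread between them.

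**Figure D1:**
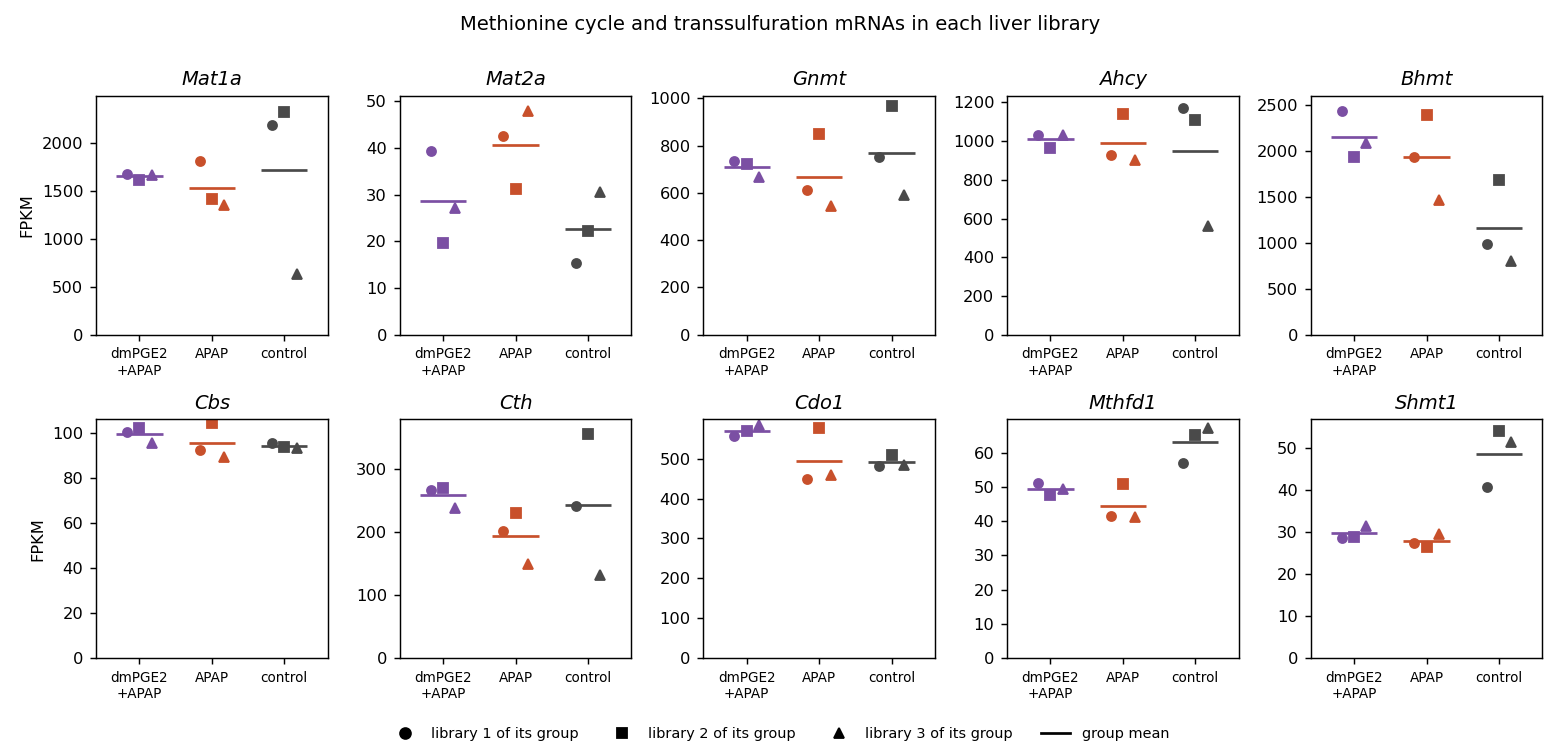
FPKM of each of the 10 mRNAs in the 3 dmPGE2+APAP, 3 APAP and 3 control libraries. Points are libraries, horizontal bars are group means and each y axis starts at 0; the triangle of the control group is the third control library, which is lowest of all 9 for Mat1a, Ahcy, Bhmt and Cth. Shmt1 is lower in all 6 APAP-treated livers than in all 3 control livers.

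The levels spanned a wide range. In dmPGE2+APAP livers the order of mean FPKM was Bhmt (2154), Mat1a (1649), Ahcy (1009), Gnmt (709), Cdo1 (570), Cth (258), Cbs (99.3), Mthfd1 (49.3), Shmt1 (29.7) and Mat2a (28.7), and the ranges of neighbours in the order did not overlap except for Shmt1 and Mat2a. In APAP livers the order was the same as far as Mthfd1, after which Mat2a (40.6) stood above Shmt1 (27.8). There the ranges of Bhmt and Mat1a, Gnmt and Cdo1, and Mthfd1 and Mat2a overlapped. In control livers Mat1a (1711) stood above Bhmt (1162), and the ranges of Mat1a, Bhmt, Ahcy and Gnmt overlapped in turn, while the 6 genes below them were each separate from their neighbours. Mat2a was lowest in control livers. The coefficient of variation was smallest in the dmPGE2+APAP group for 8 of the 10 genes, as it was for 41.5% of all tested genes.

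**Figure D2:**
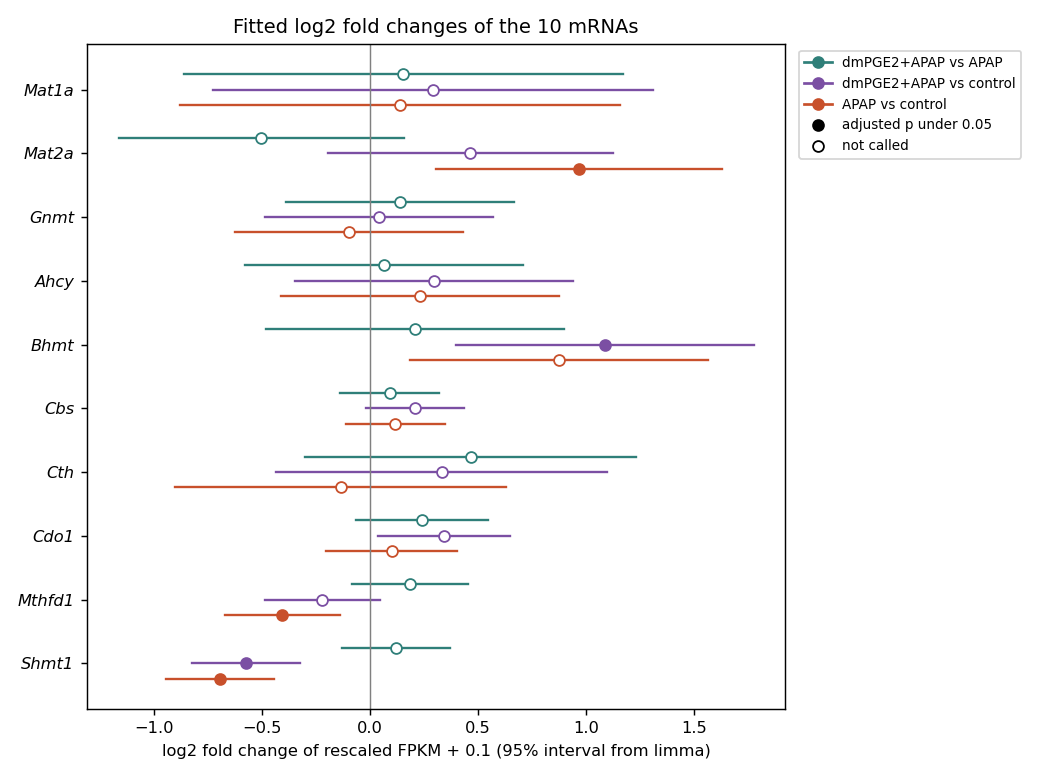
Fitted log2 fold changes of the 10 mRNAs with 95% intervals for dmPGE2+APAP vs APAP, dmPGE2+APAP vs control and APAP vs control (first group minus second). Filled circles passed an adjusted p under 0.05: Mat2a, Mthfd1 and Shmt1 in APAP vs control, and Bhmt and Shmt1 in dmPGE2+APAP vs control.

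At the step that makes S-adenosylmethionine, Mat2a passed the test in APAP livers and Mat1a did not. Mat1a (chr14:41105035-41124412, + strand, GRCm38), the hepatocyte enzyme, had 1673, 1614 and 1661 FPKM in dmPGE2+APAP livers, 1805, 1413 and 1353 FPKM in APAP livers and 2184, 2318 and 633 FPKM in control livers. The third control was the lowest of the 9 and the other 2 controls were the highest, so the groups overlapped. The fitted log2 fold change was 0.14 ± 0.45 (SE) in APAP against control livers (limma, adjusted p = 0.856), with the opposite sign to the difference of the plain means, 1524 ± 246 FPKM in APAP livers and 1711 ± 936 FPKM in control livers (SD, n = 3 each). Without the third control it was -0.51 with adjusted p = 0.0497, so that 1 library decided both the sign and the call. For dmPGE2+APAP against control livers it was 0.29 with all libraries (adjusted p = 0.704) and -0.35 without the third control (adjusted p = 0.16). Between dmPGE2+APAP and APAP livers the log2 fold change was 0.16, with a 95% interval of -0.86 to 1.17.

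Mat2a (chr6:72432799-72439558, - strand), the adenosyltransferase of most extrahepatic tissues, had 39.4, 19.7 and 27.2 FPKM in dmPGE2+APAP livers, 42.5, 31.3 and 47.9 FPKM in APAP livers and 15.4, 22.2 and 30.6 FPKM in control livers. All 3 APAP livers lay above all 3 control livers, by a narrow margin, and the dmPGE2+APAP livers overlapped both groups. Mat2a averaged 40.6 ± 8.46 FPKM in APAP livers and 22.7 ± 7.61 FPKM in control livers (SD, n = 3 each), and its fitted log2 fold change was 0.97 ± 0.29 (SE; limma, adjusted p = 0.0449). The adjusted p was 0.0282 to 0.136 as each library was left out in turn, and the call was lost without the first or the third APAP library (0.116 and 0.136), the first or the second control (0.129 and 0.0923) or the third dmPGE2+APAP library (0.0655). Its log2 fold change was -0.50 in dmPGE2+APAP against APAP livers (95% interval -1.16 to 0.16; adjusted p = 0.625) and 0.47 in dmPGE2+APAP against control livers (adjusted p = 0.317). The call was also lost with no filter on low values, no rescaling, quantile normalization or no abundance trend, at adjusted p of 0.0643, 0.0617, 0.0515 and 0.0534.

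The ratio of Mat1a to Mat2a, which no scaling between libraries can alter, was 42.5, 82.0 and 61.2 in dmPGE2+APAP livers, 42.4, 45.1 and 28.3 in APAP livers and 142, 104 and 20.7 in control livers. The first 2 controls had the highest ratios of the 9 libraries and the third control had the lowest. On the log2 scale the mean ratio differed by -0.83 in APAP against control livers (exact permutation test over libraries, two-sided, p = 0.4) and by 0.66 in dmPGE2+APAP against APAP livers (exact p = 0.2), and 3 against 3 libraries cannot give a p below 0.1. Without the third control the APAP-control difference was -1.68, with an exact p of 0.1, the smallest that 3 against 2 libraries can give.

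In the fits with all 9 libraries, Mat2a was also the one gene of the set with transcripts in the lncRNA table that passed the test. That table lists 25 transcripts under 8 of the 10 genes (none under Mat1a or Cdo1), annotated in GENCODE M21 as 17 retained-intron and 8 processed transcripts, and 21 of them were tested. In APAP against control livers 3 of the 21 were called, all of Mat2a and all upward, where 3.61% of 22984 tested transcripts were called (2.67% upward). The start of the retained sequence of Mat2a-207, of Mat2a-210 and of Mat2a-205, which was not called, and the extra exon of Mat2a-208 are shown. They were chosen because they are what tells the forms from the spliced mRNA. Sequences run 5′ to 3′ from the GENCODE M21 transcripts (GRCm38, - strand), with exon bases in capitals and intron bases in lower case.
Mat2a-207, exon 1 into intron 1, chr6:72439316-72439375: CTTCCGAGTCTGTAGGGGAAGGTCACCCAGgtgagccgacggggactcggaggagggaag
Mat2a-210, exon 3 into intron 3, chr6:72436965-72437024: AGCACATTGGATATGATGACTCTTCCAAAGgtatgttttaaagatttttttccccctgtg
Mat2a-205, exon 2 into intron 2, chr6:72437341-72437400: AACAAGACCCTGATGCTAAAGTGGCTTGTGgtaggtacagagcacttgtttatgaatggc
Mat2a-208, exon inside intron 1, chr6:72437852-72437904: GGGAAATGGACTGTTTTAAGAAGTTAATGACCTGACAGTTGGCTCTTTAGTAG

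Mat2a-207 reads 544 of the 1897 bases of intron 1, Mat2a-210 reads 247 of the 465 bases of intron 3, and Mat2a-205 holds all 253 bases of intron 2. Mat2a-207 had 4.77, 2.85 and 1.66 FPKM in dmPGE2+APAP livers, 5.51, 3.53 and 4.51 FPKM in APAP livers and 0.582, 0.570 and 1.12 FPKM in control livers. Every APAP and dmPGE2+APAP liver exceeded every control. Mat2a-210 had 4.89, 2.22 and 2.46 FPKM in dmPGE2+APAP livers, 6.95, 4.03 and 4.85 FPKM in APAP livers and 0.569, 0.955 and 1.36 FPKM in control livers. Its APAP-treated livers were again all above the controls, and the first dmPGE2+APAP liver lay within the APAP range. Mat2a-208 had 0.819, 0.417 and 0.245 FPKM in dmPGE2+APAP livers, 1.22, 0.684 and 1.28 FPKM in APAP livers and 0.0913, 0.128 and 0.165 FPKM in control livers, with the same separation from the controls.

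In APAP against control livers the log2 fold change was 2.43 ± 0.40 (SE) for Mat2a-207 (limma, adjusted p = 0.0161), 2.34 ± 0.40 for Mat2a-210 (adjusted p = 0.0174) and 2.28 ± 0.38 for Mat2a-208 (adjusted p = 0.0166). Mat2a-205 had 2.24, 1.999 and 1.45 FPKM in dmPGE2+APAP livers, 2.86, 2.77 and 2.87 FPKM in APAP livers and 1.65, 1.13 and 1.20 FPKM in control livers, with a log2 fold change of 1.02 in APAP against control livers and adjusted p = 0.0688. The 3 calls were lost together, at adjusted p of 0.0528 to 0.0666, without the first or the third APAP library or the first or the second control, while their log2 fold changes stayed between 2.03 and 2.48 in those fits. As a percentage of the FPKM of the Mat2a gene, Mat2a-207 stood at 12.1, 14.5 and 6.12 in dmPGE2+APAP livers, 12.96, 11.3 and 9.42 in APAP livers and 3.78, 2.57 and 3.67 in control livers. The share was higher in all 6 APAP-treated livers than in the 3 controls, and the shares of Mat2a-208 and Mat2a-210 were separated in the same way. These are the 3 transcripts called upward in the same libraries, so the separation partly restates those calls. How many of all transcripts separate in this way was not counted. The share of Mat2a-205 was 5.69, 10.2 and 5.32 in dmPGE2+APAP livers, 6.73, 8.83 and 5.995 in APAP livers and 10.7, 5.085 and 3.92 in control livers, and it overlapped, with the first control the highest of the 9. These shares set a transcript from one table beside a gene value from the other and were not tested. The Mat2a transcripts of the lncRNA table share exon bases with the mRNA. Whether the gene value includes their reads is not given in the sources used here. The calls of the Mat2a gene and of its transcripts may thus not be separate.

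Between dmPGE2+APAP and APAP livers limma called 0 of the 21 transcripts and 0 of all 22984, of which 1490 had an unadjusted p under 0.05; Mat2a-207, Mat2a-210 and Mat2a-208 had log2 fold changes of -0.55, -0.68 and -0.97 (adjusted p = 0.863, 0.828 and 0.732). Limma also called 0 of the 21 in dmPGE2+APAP against control livers, against a background of 1.81%, and Mat2a-207, with a log2 fold change of 1.88, had adjusted p = 0.0506 and an unadjusted p of 0.000926. Of the other 17 tested transcripts, the furthest from 0 in APAP against control livers was Shmt1-206, with a log2 fold change of -2.42 and adjusted p = 0.106. Particl, a transcript annotated on the opposite strand, covers exon 1 of Mat2a and 295 of the 544 intron bases of Mat2a-207, but 0 intron bases of Mat2a-210, Mat2a-205 and Mat2a-208. The libraries keep the strand, and whether the quantification used it is not given in the sources used here, so reads of Mat2a-207 and Particl may not be told apart; Particl was not analysed here.

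**Figure D3:**
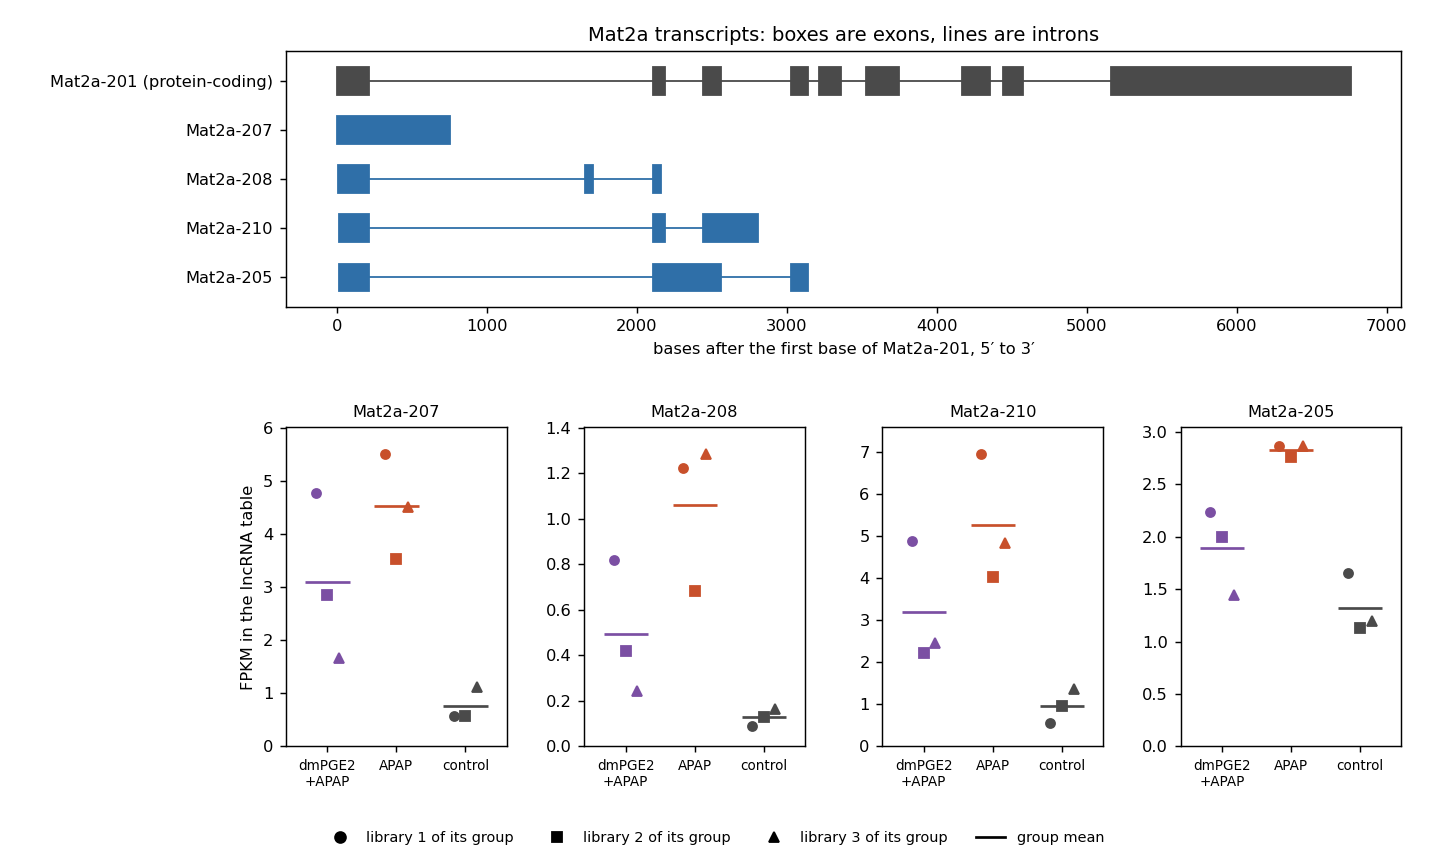
Upper panel: exons (boxes) and introns (lines) of the protein-coding Mat2a-201 and of 4 Mat2a transcripts of the lncRNA table, in bases from the first base of Mat2a-201. Lower panels: FPKM of each transcript per library (points) with group means (bars), y axes from 0; in Mat2a-207, Mat2a-208 and Mat2a-210 all dmPGE2+APAP and APAP livers lie above all control livers.

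The promoter of Mat2a is shown because its gene value and 3 of its 4 tested lncRNA-table transcripts were called upward in APAP against control livers. These calls may not be separate, since the gene value may include reads of the transcripts. The 250 bases before the start are from RefSeq (GRCm38.p6), with motif matches in capitals on either strand.
Mat2a promoter, chr6:72439557-72439806, - strand: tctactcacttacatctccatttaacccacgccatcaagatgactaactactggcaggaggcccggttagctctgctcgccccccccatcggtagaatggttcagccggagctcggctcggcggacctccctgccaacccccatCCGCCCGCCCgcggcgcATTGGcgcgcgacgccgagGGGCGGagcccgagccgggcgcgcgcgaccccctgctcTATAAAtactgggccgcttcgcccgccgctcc
A search for 6 motifs was made in the 7 of the 10 genes matched to a RefSeq window (all but Mat1a, Cth and Cdo1). They were the CCAAT box (CCAAT), the TATA box (TATAAA), the GC box (GGGCGG), the C/EBP-ATF element (TGATGNAA), the E-box (CACGTG) and the nuclear receptor element (AGGTCA), on both strands. TATAAA occurred in the Mat2a window alone, beginning 32 bases before the start, and it occurs in 12.4% of 32851 windows of that length. Mat2a also held a CCAAT box 89 bases before the start and 3 GGGCGG matches, 2 of which overlap each other. CCAAT occurred in all 7 windows and in 33.8% of all windows. TGATGNAA occurred in none of the 7 and in 3.5% of all windows. These are matches of letters in a window, and a missing match says only that the letters are not in it.

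For methyl transfer and hydrolysis, neither gene passed the test in any comparison. Gnmt encodes glycine N-methyltransferase, which disposes of surplus S-adenosylmethionine, and it had 736, 723 and 669 FPKM in dmPGE2+APAP livers, 611, 848 and 546 FPKM in APAP livers and 751, 967 and 590 FPKM in control livers. The 3 ranges overlapped. Its log2 fold change was -0.10 in APAP against control livers (95% interval -0.63 to 0.43) and 0.14 in dmPGE2+APAP against APAP livers (95% interval -0.39 to 0.67). Ahcy, which encodes S-adenosylhomocysteine hydrolase, had 1031, 965 and 1033 FPKM in dmPGE2+APAP livers, 926, 1141 and 902 FPKM in APAP livers and 1172, 1110 and 561 FPKM in control livers. The third control lay far below the other 8 libraries. The log2 fold change of Ahcy was 0.23 in APAP against control livers and -0.14 without the third control (adjusted p = 0.599 and 0.519). A retrogene, Gm4737, is 99.7% identical to Ahcy over 2083 aligned bases, and its deposited FPKM was 27.7% to 30.3% of that of Ahcy in the 9 libraries, so the share of reads that belongs to each is uncertain.

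Bhmt, which encodes the betaine-homocysteine methyltransferase that remethylates homocysteine, passed the test in pretreated livers. Bhmt (chr13:93616675-93637961, - strand) had 2436, 1934 and 2091 FPKM in dmPGE2+APAP livers, 1933, 2392 and 1466 FPKM in APAP livers and 993, 1688 and 806 FPKM in control livers. All 3 dmPGE2+APAP livers were above the controls, and the third APAP liver was below the second control. Bhmt averaged 2154 ± 257 FPKM in dmPGE2+APAP livers and 1162 ± 465 FPKM in control livers (SD, n = 3 each), a log2 fold change of 1.09 ± 0.31 (SE; limma, adjusted p = 0.0409). In APAP against control livers it was 0.88 ± 0.31 (adjusted p = 0.072), and in dmPGE2+APAP against APAP livers 0.21 (95% interval -0.48 to 0.90; adjusted p = 0.86). The pretreated-control call was lost when any of 6 single libraries was left out: at adjusted p of 0.0622 without the first APAP library, 0.106 and 0.0855 without the first and the third control, and 0.121, 0.084 and 0.0999 without each dmPGE2+APAP library in turn. Without the second control, the highest of its group, the log2 fold change in APAP against control livers was 1.20 and the adjusted p 0.0212. Bhmt was also called there with quantile normalization (0.86, adjusted p = 0.0469). The pretreated-control call was lost with no filter (0.0917) and with the 2 groups fitted alone (0.0597). Gm5096, a retrogene 99.4% identical to Bhmt over 1869 aligned bases, had 11% to 12.4% of its FPKM in every library and a log2 fold change of 1.14 in dmPGE2+APAP against control livers (limma, adjusted p = 0.0389), so the values of both genes are uncertain.

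No gene of transsulfuration or cysteine oxidation passed the test in any comparison with all 9 libraries. Cbs, cystathionine β-synthase, which commits homocysteine to the branch, had 100.2, 102 and 95.3 FPKM in dmPGE2+APAP livers, 92.2, 104 and 89.3 FPKM in APAP livers and 95.3, 93.7 and 93.1 FPKM in control livers. The log2 fold change of Cbs was 0.12 in APAP against control livers, with a 95% interval of -0.11 to 0.35, the narrowest of the 10 genes. The dmPGE2+APAP livers did not overlap the controls, though the lowest of them and the highest control were equal to 3 digits, with a log2 fold change of 0.21 and adjusted p = 0.197.

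Cth, cystathionine γ-lyase, which releases cysteine, had 266, 269 and 239 FPKM in dmPGE2+APAP livers, 200.95, 229 and 149 FPKM in APAP livers and 241, 356 and 131 FPKM in control livers. All 3 dmPGE2+APAP livers were above all 3 APAP livers, the only one of the 10 genes for which these groups did not overlap, where 16% of all tested genes did not. The log2 fold change was 0.47 ± 0.34 (SE) in that comparison, with a 95% interval of -0.30 to 1.23 (limma, adjusted p = 0.697). In APAP against control livers it was -0.13 with all libraries and -0.55 without the third control. In the lncRNA table Cth-202 and Cth-204 had log2 fold changes of 1.35 and 1.61 in dmPGE2+APAP against APAP livers, with unadjusted p of 0.00497 and 0.00947 and adjusted p of 0.538 and 0.625.

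Cdo1, cysteine dioxygenase, which oxidises cysteine towards taurine and sulfate, had 557, 569 and 585 FPKM in dmPGE2+APAP livers, 449, 577 and 460 FPKM in APAP livers and 483, 510 and 485 FPKM in control livers. The second APAP liver lay within the dmPGE2+APAP range and the other APAP livers lay below all controls. Its log2 fold change was 0.34 ± 0.13 (SE) in dmPGE2+APAP against control livers (95% interval 0.04 to 0.65; limma, adjusted p = 0.118) and 0.10 in APAP against control livers (adjusted p = 0.627), which became -0.000616 without rescaling.

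Both folate enzymes fell in APAP livers against control. Shmt1 (chr11:60788104-60811718, - strand), cytosolic serine hydroxymethyltransferase, which transfers a carbon of serine to tetrahydrofolate, had 28.6, 28.9 and 31.5 FPKM in dmPGE2+APAP livers, 27.4, 26.5 and 29.6 FPKM in APAP livers and 40.6, 54.0 and 51.3 FPKM in control livers. Every control exceeded every APAP-treated liver. Shmt1 averaged 27.8 ± 1.58 FPKM in APAP livers and 48.7 ± 7.08 FPKM in control livers (SD, n = 3 each), a log2 fold change of -0.69 ± 0.11 (SE; limma, adjusted p = 0.0033). In dmPGE2+APAP livers it averaged 29.7 ± 1.62 FPKM and fell by 0.57 on the log2 scale against control (adjusted p = 0.00986). Shmt1 kept both calls as each of the 9 libraries was left out, at adjusted p of 0.00288 to 0.0153 in APAP against control and 0.00656 to 0.044 in dmPGE2+APAP against control, and no other of the 10 genes did so in either comparison. Between dmPGE2+APAP and APAP livers its log2 fold change was 0.12, with a 95% interval of -0.13 to 0.37. The protein-coding gene Smcr8 overlaps Shmt1 on the opposite strand. The 5 tested Shmt1 transcripts of the lncRNA table passed no test. Shmt1-203 had log2 fold changes of -2.18 in dmPGE2+APAP against control livers (adjusted p = 0.0525) and -1.51 in APAP against control livers (adjusted p = 0.115).

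Mthfd1 (chr12:76255298-76319803, + strand), the trifunctional cytosolic enzyme that interconverts folate-bound carbons, had 51.1, 47.5 and 49.3 FPKM in dmPGE2+APAP livers, 41.4, 50.8 and 41.1 FPKM in APAP livers and 56.9, 65.1 and 67.1 FPKM in control livers. The controls were above all 3 dmPGE2+APAP and all 3 APAP livers. Mthfd1 averaged 44.4 ± 5.52 FPKM in APAP livers and 63.0 ± 5.42 FPKM in control livers (SD, n = 3 each), and fell by 0.41 on the log2 scale (SE 0.12; limma, adjusted p = 0.0396). The call was lost in 8 of the 9 fits that left out 1 library, at adjusted p of 0.0529 to 0.12, and held at 0.012 without the second APAP library; the third control, whose removal gave 0.0708, is among those 8. It was also lost with no abundance trend (0.0503) and with the 2 groups fitted alone (0.086). The log2 fold change in dmPGE2+APAP against control livers was -0.22, adjusted p = 0.241, and without rescaling it was -0.35 at adjusted p = 0.0476. The RefSeq window before the start of Mthfd1 is shown to set beside that of Mat2a, since the mRNAs of these genes moved in opposite directions, with matches in capitals (the nuclear receptor element, the GC box and the CCAAT box, on either strand).
Mthfd1 promoter, chr12:76254982-76255231, + strand: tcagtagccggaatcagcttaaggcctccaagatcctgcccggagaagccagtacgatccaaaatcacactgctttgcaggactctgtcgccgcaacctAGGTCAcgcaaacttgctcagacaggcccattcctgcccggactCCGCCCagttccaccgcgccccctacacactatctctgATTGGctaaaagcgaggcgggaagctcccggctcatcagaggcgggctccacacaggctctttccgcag
The CCAAT match lies 69 bases, the GGGCGG match 107 bases and the AGGTCA match 151 bases before the RefSeq start. The window of Shmt1, which also fell, held 1 CCAAT and 4 GGGCGG matches and none of the other motifs searched. Both of its motifs also occurred in the Mat2a window. A link between matches and the direction of change was not tested.

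**Figure D4:**
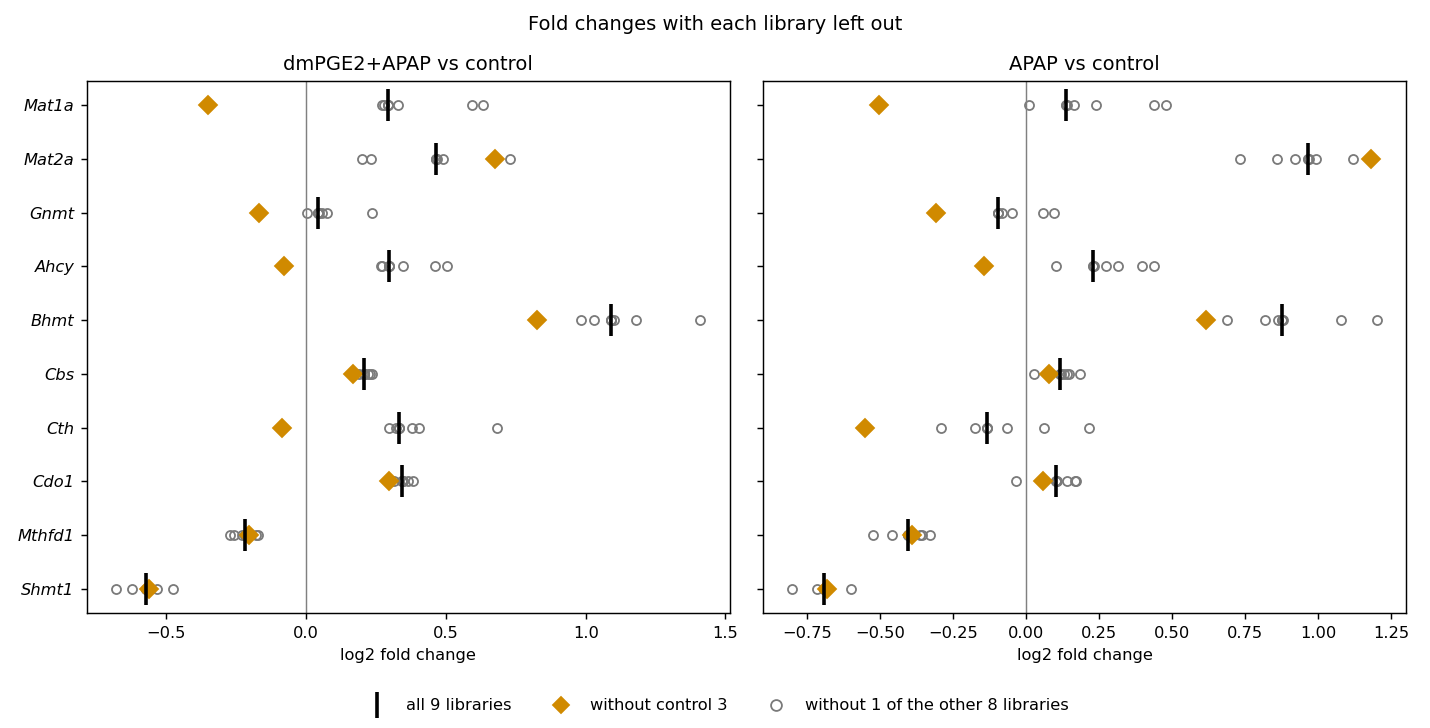
Log2 fold changes of the 10 mRNAs for dmPGE2+APAP vs control and APAP vs control, with all 9 libraries (bars), without the third control (diamonds) and without each of the other 8 libraries (open circles). Leaving out the third control gives Mat1a -0.51 in APAP vs control, beside 0.14 with all libraries, whereas Shmt1 stays between -0.80 and -0.60.

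The third control set the values of several genes. Its level divided by the mean of the other 2 controls was 0.281 for Mat1a, 0.440 for Cth, 0.492 for Ahcy, 0.601 for Bhmt, 0.687 for Gnmt and 1.63 for Mat2a. For Cdo1, Cbs, Shmt1 and Mthfd1 it was 0.976, 0.985, 1.084 and 1.101. Mat1a, Gnmt, Ahcy, Bhmt and Cth were lower in it than in both other controls and Mat2a was higher, while the folate genes, Cbs and Cdo1 were close to the other controls. Across the 9 libraries the tested genes outside the set whose log2 levels ran most like Mat1a were Psmc1, E030018B13Rik and Plaa (Pearson r 0.988, 0.983 and 0.983), and those most like Mat2a were Gapvd1, Sde2 and Fbrsl1 (0.969, 0.954 and 0.953). The 9 points share groups and the third control, and the values are a description.

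Other genes of these pathways, 67 on 8 lists, gave 62 tested genes. In APAP against control livers 7 rose and 8 fell (24 at an unadjusted p under 0.05), beside 20.9% of all genes called, and the median log2 fold change was -0.06. Without the third APAP library 9 of the 62 were called, and 9 to 16 as each library was left out. Limma called 0 of the 7 tested genes of the methionine cycle list (Mat2b, Ahcyl1, Mtr and others), and 2 of them had an unadjusted p under 0.05. Of 8 methyltransferases that use S-adenosylmethionine 1 fell, and of 7 genes of cysteine, taurine and sulfide metabolism 1 fell. Of 6 genes of glutathione synthesis and turnover (Gclc, Gclm, Gss, Ggct, Oplah and Chac1) 3 rose, Gclc and the glutathione-degrading Chac1 among them. Of 16 folate genes 1 rose and 3 fell, and of 5 choline and betaine oxidation genes 1 fell. Both tested serine synthesis genes rose, and of 11 salvage and polyamine genes 1 rose and 2 fell.

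The called genes with at least a 2-fold change lay at the borders of the pathway. They were chosen by their difference between APAP and control livers. That choice itself favours pretreated values that lie between these groups. Psat1, phosphoserine aminotransferase of serine synthesis, had 2.05, 1.63 and 1.36 FPKM in dmPGE2+APAP livers, 4.55, 6.22 and 3.92 FPKM in APAP livers and 0.493, 0.277 and 0.473 FPKM in control livers. The 3 groups did not overlap, with the pretreated livers between the others. Its log2 fold change was 3.37 ± 0.25 (SE) in APAP against control (limma, adjusted p = 7.45e-05) and -1.45 in dmPGE2+APAP against APAP (adjusted p = 0.203). Mthfd2, the mitochondrial methylenetetrahydrofolate dehydrogenase, had 2.28, 1.88 and 1.55 FPKM in dmPGE2+APAP livers, 3.30, 4.31 and 4.64 FPKM in APAP livers and 0.780, 0.677 and 0.922 FPKM in control livers. The groups fell in the same order without overlap. Between dmPGE2+APAP and APAP livers, the groups did not overlap for 16% of all tested genes. The log2 fold change of Mthfd2 was 2.32 ± 0.18 in APAP against control (adjusted p = 0.000114) and -1.04 in dmPGE2+APAP against APAP (adjusted p = 0.208).

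Sat1, the polyamine acetyltransferase, had 36.3, 26.7 and 25.7 FPKM in dmPGE2+APAP livers, 47.8, 48.4 and 54.4 FPKM in APAP livers and 18.8, 14.2 and 15.0 FPKM in control livers. Its groups were separate, and it rose by 1.75 on the log2 scale in APAP against control livers (limma, adjusted p = 0.000255). In dmPGE2+APAP against APAP livers Sat1 was not called. There its log2 fold change was -0.915 to -0.664 as each library was left out (limma, adjusted p of 0.0511 to 0.753). Gclc, the catalytic subunit of the rate-limiting enzyme of glutathione synthesis, had 94.6, 76.2 and 66.2 FPKM in dmPGE2+APAP livers, 129.6, 97.5 and 126.6 FPKM in APAP livers and 41.6, 53.6 and 74.9 FPKM in control livers. All APAP livers lay above the others, and the pretreated and control livers overlapped. Gclc rose by 1.19 on the log2 scale in APAP against control livers (adjusted p = 0.00459). Gclm, of the same list, went the other way without being called. It had 36.4, 34.9 and 15.6 FPKM in dmPGE2+APAP livers and 32.5, 22.5 and 32.6 FPKM in APAP livers. Its control values of 41.8, 45.1 and 45.6 FPKM lay above all of these. Chac1, which degrades glutathione, had 4.82, 9.37 and 8.96 FPKM in dmPGE2+APAP livers, 4.10, 7.76 and 5.74 FPKM in APAP livers and 1.27, 0.764 and 0.901 FPKM in control livers. All 6 APAP-treated livers lay above the controls, and Chac1 rose by 2.54 in APAP against control livers (adjusted p = 0.000957). Mean Chac1 was higher in dmPGE2+APAP than in APAP livers (7.72 against 5.87 FPKM), and these groups overlapped. Inmt, indolethylamine N-methyltransferase, had 55.5, 75.4 and 88.1 FPKM in dmPGE2+APAP livers, 37.9, 63.7 and 52.9 FPKM in APAP livers and 124, 121 and 361 FPKM in control livers, the third control being the highest by far. Its log2 fold change was -1.70 in APAP against control livers (adjusted p = 0.0148), -1.21 without the third control (0.0114) and -1.49 without the first APAP library, which ended the call (0.0546).

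Set against control, 5 of the 62 rose and 3 fell in dmPGE2+APAP livers, beside the 16.3% of all genes, and 6 to 10 were called as each library was left out. Those that rose were Chac1, Psat1, Mthfd2, Sat1 and the folate carrier Slc19a1, with log2 fold changes of 2.95, 1.91, 1.28, 1.00 and 0.57. Those that fell were Chdh, which oxidises choline towards betaine (-0.71), Srm, spermidine synthase (-0.67), and Mtap of methionine salvage (-0.41). Between dmPGE2+APAP and APAP livers limma called 0 of the 62, and 9 had an unadjusted p under 0.05.

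**Figure D5:**
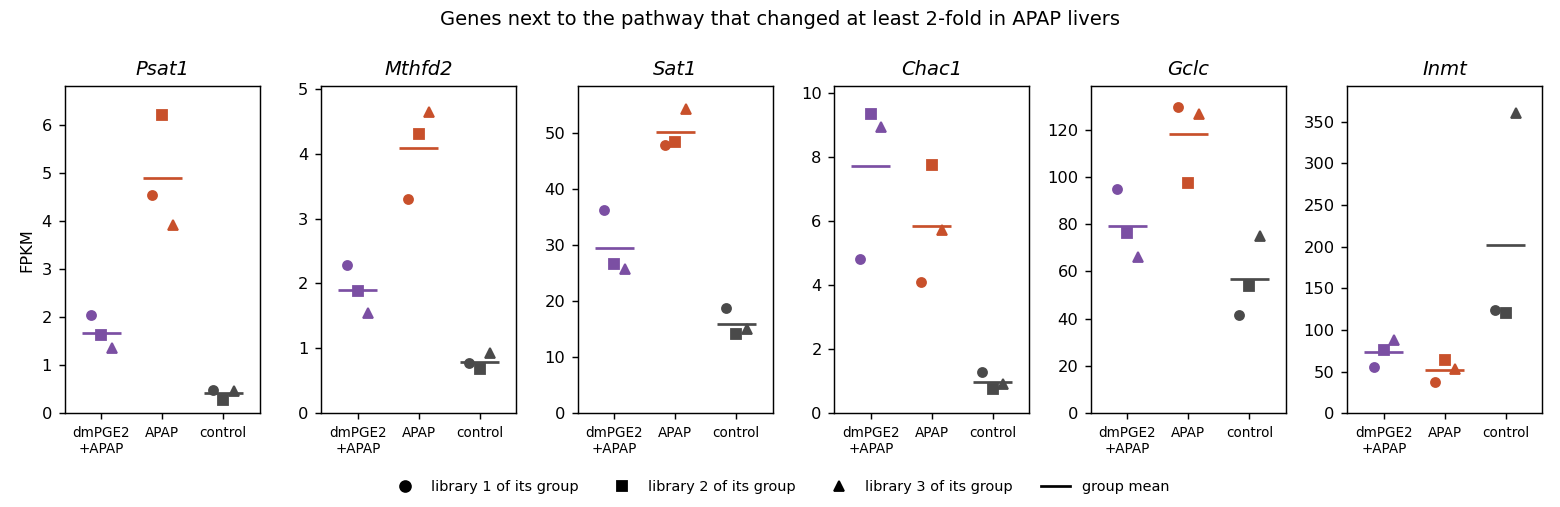
FPKM per library (points) and group means (bars) of 6 genes next to the pathway that were called in APAP vs control with at least a 2-fold change, in dmPGE2+APAP, APAP and control livers, y axes from 0. Psat1, Mthfd2 and Sat1 show 3 separate groups with dmPGE2+APAP between APAP and control, and Inmt is highest in the third control. The dmPGE2+APAP and APAP groups did not overlap for 16% of all tested genes. Mean Chac1 is higher in dmPGE2+APAP than in APAP livers.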

How the data were processed

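Total RNA from liver was depleted of ribosomal RNA and made into 9 strand-marked libraries, per the labels' protocols. Reads were aligned with HISAT2 to GRCm38/mm10, per the submitters' processing notes; the quantifier and annotation are not given in the sources used here. The authors deposited FPKM values for genes and for lncRNA-table transcripts. The deposited tables named for read counts hold scores, not counts. In the lncRNA table the high scores, 2304 to 3163 transcripts a library, all lay within 1% of FPKM times genomic span times a constant per library. In the mRNA table this held within 1% for 84.4% to 85.7% of 590 to 640 multi-exon genes with 1 annotated transcript, and for 0.504% to 1.29% of them with exonic length in place of span. Over 8877 to 9394 mRNA-table genes a library, with any number of transcripts, it held with gene span for 0.91% to 1.21%. The scores of genes with more transcripts were not resolved further. The scores entered no test, and depth is unknown. The labels do not define the name of the control columns; they were assigned to the saline group, the one group that no other column names.

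Genes reaching 0.5 FPKM in 3 or more libraries (transcripts, 0.1 FPKM) were tested with limma 3.58.1 in R 4.3.3 on log2(FPKM divided by an unweighted TMM factor + 0.1), with an abundance trend, all 9 libraries in 1 fit, 6 residual degrees of freedom, two-sided, Benjamini-Hochberg over all features tested. The TMM factor for genes came from the mRNA table, and that for transcripts from both tables together. A fold change on this scale understates that of low features. The fit was tested on simulated data. The named genes are all 10 members, their tested transcripts, and listed pathway genes called in APAP against control with at least 2-fold change, at most 4 a list; a result for 1 listed gene is not reported here, and that gene is left out of the list counts. Slc19a1, Chdh, Srm, Mtap and Gclm, and the retrogenes, were named after their values were seen. Members, lists and tests were chosen with earlier results of these data known. Near-identical copies were found with blastn 2.17.0. Beside the retrogenes they included processed pseudogenes whose values were not analysed here. These were Gm9523 of Mat2a (95.2% identical over 1065 aligned bases), Bhmt-ps1 of Bhmt (98.9% over 1224), and Gm9826 and Gm5638 of Ahcy (99.2% over 1299 and 94.5% over 1128). Alternatives were pseudocounts of 1 and 0.01, no filter, other scalings, no trend, fewer groups, a replicate block and leaving out each library.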

Additional observations from a re-analysis of the deposited data

How the results depend on the processing

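The counts of the 10 genes called ranged from 1 to 3 in APAP against control and from 1 to 2 in dmPGE2+APAP against control as each library was left out, and were 0 in dmPGE2+APAP against APAP throughout. Shmt1 alone was called with no abundance trend in APAP against control (1 gene), and with no filter or with 2 groups only in dmPGE2+APAP against control (1 gene each). For lncRNA-table transcripts of these genes the counts were 0 to 3 and 0 to 1 in the comparisons of APAP and of dmPGE2+APAP with control when libraries were left out, the single transcript of the second range being Shmt1-203, and with a pseudocount of 0.01 it was 1, Mat2a-207. The Mat1a to Mat2a log2 ratio in dmPGE2+APAP against control ran from -1.02 (without the third control) to 0.361. A fit with a library left out also holds fewer libraries, and the cause of these changes was not tested. Uncalled fold changes turned sign as follows. Without rescaling, Cdo1 was -0.000616 in APAP against control and Gnmt -0.0891 in dmPGE2+APAP against control; with quantile normalization Gnmt was -0.09 there and Ahcy -0.102 in dmPGE2+APAP against APAP. Leaving out libraries gave, in APAP against control, -0.0355 to 0.172 for Cdo1, -0.308 to 0.0967 for Gnmt, -0.553 to 0.214 for Cth, -0.505 to 0.479 for Mat1a and -0.144 to 0.438 for Ahcy. In dmPGE2+APAP against APAP it gave -0.0154 to 0.347 for Gnmt and -0.0202 to 0.193 for Ahcy. In dmPGE2+APAP against control it gave -0.35 to 0.634 for Mat1a, -0.168 to 0.237 for Gnmt, -0.0789 to 0.503 for Ahcy and -0.0864 to 0.681 for Cth. Other settings kept direction and call in 484 of 500 single-feature values, and left-out libraries in 493 of 540. These totals include uncalled features and dmPGE2+APAP against APAP, where no call could be lost. They thus do not measure how firm the calls were. With libraries left out in APAP against control, the call was kept in 4 of 9 fits for Mat2a, 1 for Mthfd1 and 9 for Shmt1. For Mat2a-207, Mat2a-208 and Mat2a-210 it was kept in 5 of 9 each. In dmPGE2+APAP against control it was kept in 3 of 9 for Bhmt and 9 for Shmt1. Other pathway genes called numbered 10 to 20 in APAP against control (20 without rescaling) and 7 to 14 in dmPGE2+APAP against control (14 without rescaling). TMM over tested genes only was added after the data were seen, as were the alternatives for the other pathway genes.

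Same-numbered dmPGE2+APAP and APAP libraries did not deviate together (correlations 0.0226, 0.0232 and -0.117 over 11557 genes). Pairs with unlike numbers ran from -0.154 to 0.149, so these values show no pairing by number but cannot exclude it. With the number as a replicate block in dmPGE2+APAP against APAP, 0 of the 10 genes and 0 of their transcripts were called. For the comparisons with control no block was fitted. No paired analysis was possible because the names of the control columns match no labelled sample, so their numbers name columns only. The 95% intervals are those of single features, with no adjustment for the number of features tested, and use the spread over all 9 libraries. An uncalled fold change can thus have an interval that leaves out 0, as Cdo1 had in dmPGE2+APAP against control (0.04 to 0.65).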
